A study of Mus musculus with 15 samples.

Results

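Glypicans and syndecans are the 2 families of cell surface proteoglycans that carry heparan sulphate, and their transcripts were measured in lung dysplasia of transgenic mice. The members are the 10 genes Gpc1 to Gpc6 and Sdc1 to Sdc4, read through every probe set that the array annotation gives to 1 of these genes alone. This gave 24 probe sets of 45037 on the array, 11 for glypicans and 13 for syndecans. Of these, 17 probe sets of 8 genes had a mean signal above 100 over the 15 arrays and entered the tests, together with 21641 others. The only probe set of Gpc2 and the only one of Gpc5 lay below that limit.

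Affymetrix mouse genome arrays were hybridised with RNA from laser-microdissected lung tissue of 3 groups, with 5 arrays in each. Dysplasia was taken from SP-C/c-raf mice aged 5 to 7 months, in which the surfactant protein C promoter, active in alveolar type 2 cells, drives the transgene. Transgenic but unaltered tissue came from the same dysplasia-bearing mice, and non-transgenic lung came from wild-type littermates aged 7 to 10 months, so that age differed along with genotype. By the Xist signal, given below, the groups also differed in their share of female mice. All mice had been kept in the C57BL/6 background. Each array held RNA pooled from 1 animal, and unaltered tissue of both kinds holds many cell types of the lung besides epithelium.

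In the 2 families the core protein decides where the sugar chains sit. Glypicans are held in the outer leaflet of the membrane by a glycosylphosphatidylinositol anchor and act on Wnt, Hedgehog, FGF and BMP ligands at the cell surface. Syndecans span the membrane, and their short cytoplasmic tails bind PDZ proteins and link the matrix to the actin cytoskeleton. In lung, Sdc1 is the main syndecan of epithelium and Sdc2 is found mostly in mesenchyme and endothelium.

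Positions and sequences were those of RefSeq on build GRCm38.p6. Gpc3 (X, 52272426 to 52613974) and Gpc4 (X, 52051007 to 52164923) lie 107502 bases apart with 0 protein-coding genes between them, and Gpc5 (chromosome 14, 115092201 to 116525192) and Gpc6 (chromosome 14, 116924920 to 117979529) lie 399727 bases apart, also with 0 between them. Gpc1 is on chromosome 1, Gpc2 on 5, Sdc1 on 12, Sdc2 on 15, Sdc3 on 4 and Sdc4 on 2.

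The RefSeq promoter table matched 7 of the 10 genes. The 250 bases before the annotated start are shown for Sdc1 and Sdc4, the 2 syndecans that were higher in dysplasia, and for Gpc3, the member that was lowest relative to unaltered tissue. Each is written 5′ to 3′ on the gene's own strand, with capitals marking the GC box (GGGCGG, searched on both strands, so that CCGCCC is its other strand) and TATAA on the sense strand.
Sdc1, chr12:8771146-8771395, plus strand: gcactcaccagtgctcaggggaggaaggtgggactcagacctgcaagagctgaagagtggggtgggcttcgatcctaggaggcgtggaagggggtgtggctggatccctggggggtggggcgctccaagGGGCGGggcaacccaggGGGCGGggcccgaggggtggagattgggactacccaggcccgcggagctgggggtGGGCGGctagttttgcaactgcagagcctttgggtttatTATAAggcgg
Sdc4, chr2:164443189-164443438, minus strand: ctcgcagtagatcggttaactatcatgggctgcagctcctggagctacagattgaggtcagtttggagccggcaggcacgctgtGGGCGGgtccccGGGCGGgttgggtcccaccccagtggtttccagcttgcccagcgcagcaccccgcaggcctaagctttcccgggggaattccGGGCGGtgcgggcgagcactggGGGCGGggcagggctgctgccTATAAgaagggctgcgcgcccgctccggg
Gpc3, chrX:52613975-52614224, minus strand: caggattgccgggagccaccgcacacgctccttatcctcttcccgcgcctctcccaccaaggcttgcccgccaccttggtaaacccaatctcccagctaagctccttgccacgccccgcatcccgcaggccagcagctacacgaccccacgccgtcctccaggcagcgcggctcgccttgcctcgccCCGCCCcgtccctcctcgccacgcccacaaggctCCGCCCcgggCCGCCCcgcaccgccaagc

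The GC box was found in 7 of the 7 matched windows, Gpc2, Gpc3, Gpc4, Gpc5, Sdc1, Sdc3 and Sdc4, and in 32.7% of 32851 windows of the same length in the table. TATAA was found in the windows of Sdc1 and Sdc4 and in no other member's window, against 16% of all windows. It began 10 bases before the annotated start of Sdc1 and 29 bases before that of Sdc4. Of the motifs tied to factors downstream of Erk, the AP-1 site (TGANTCA, both strands) was in 0 of the 7 windows and 6.75% of all windows, and an Ets core (CCGGAA, both strands) was in the window of Sdc4 alone and 12% of all windows. The Ets core of Sdc4 shared 2 bases with a GC box. These matches describe letters only.

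Signals are on the linear scale of the Affymetrix software, with every array scaled to the same trimmed mean, and log2 changes are of signal + 50. The change of a gene with low signal is therefore understated. Calls are limma adjusted p-values under 0.05, corrected over all 21658 tested probe sets. In bulk tissue, fewer cells of a type cannot be told apart from less RNA per cell.

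Some facts of the arrays touch these results. Endothelial marker genes were lower in dysplasia for 14 of 14 tested genes, with summed signals of 23124 to 34089 in dysplasia, 64422 to 85326 in unaltered transgenic tissue and 75505 to 93994 in non-transgenic tissue. Alveolar type 2 markers were called higher for 1 of 9 genes and lower for 0 in dysplasia against transgenic tissue (3 higher with the array number as a block), with sums of 134737 to 225493 in dysplasia, 125431 to 212036 in transgenic and 116004 to 156071 in non-transgenic tissue. The ratio of 5′ to 3′ actin signal, a sign of RNA integrity, ran between 25.1% and 75.2% in dysplasia, 12.5% and 63.4% in transgenic and 14.1% and 72.8% in non-transgenic arrays. Xist, expressed from the inactive X of females, was at 9674 or more on 2 dysplasia, 1 transgenic and 4 non-transgenic arrays and at 166 or less on the others, and dysplasia array 4 carried it where transgenic array 4 did not. Transgenic array 2 has a title that names unaltered tissue and a characteristic that names tumour, and it was kept under its title.

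In dysplasia against transgenic tissue, 3 member genes were higher (Gpc6, Sdc1 and Sdc4), 4 were lower (Gpc3, Gpc4, Sdc2 and Sdc3) and Gpc1 had no call. By probe set, 7 of 17 were called higher and 7 lower, beside 33.2% of all tested probe sets called in either direction, 15.3% higher and 17.9% lower. The members' median log2 change was -0.04, against -0.01 for all tested probe sets. The same 7 genes were called in the same direction against non-transgenic tissue, where 8 probe sets were called higher and 7 lower, beside 44.0% of all called, 20.7% higher and 23.3% lower, with medians of -0.04 for the members and -0.03 for all. These 2 comparisons share the dysplasia arrays. With the array number as a block, 15 of 17 were called in each, beside 49.2% of all tested against transgenic and 49.6% against non-transgenic tissue. The counts with and without the block include Gpc6 1437417_s_at, which passed the signal limit only through the group where it is high. Without it, 6 of 16 probe sets were called higher and 7 lower against transgenic tissue in the unblocked fit. Against non-transgenic tissue 7 were called higher and 7 lower. With the block, each count of 15 would be 1 fewer, out of 16. The non-overlapping probe sets given next would each be 1 fewer among those higher. The signals of the groups did not overlap for 5 member probe sets higher and 5 lower against transgenic tissue, beside 25.3% of all tested (11.8% higher and 13.6% lower), and for 7 higher and 6 lower against non-transgenic tissue, beside 33.3% of all (15.8% higher and 17.5% lower). Without dysplasia array 4 the counts were 7 higher and 6 lower against transgenic tissue, and 8 higher and 7 lower against non-transgenic tissue. Without transgenic array 2 they were 7 higher and 6 lower.

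**Figure D1:**
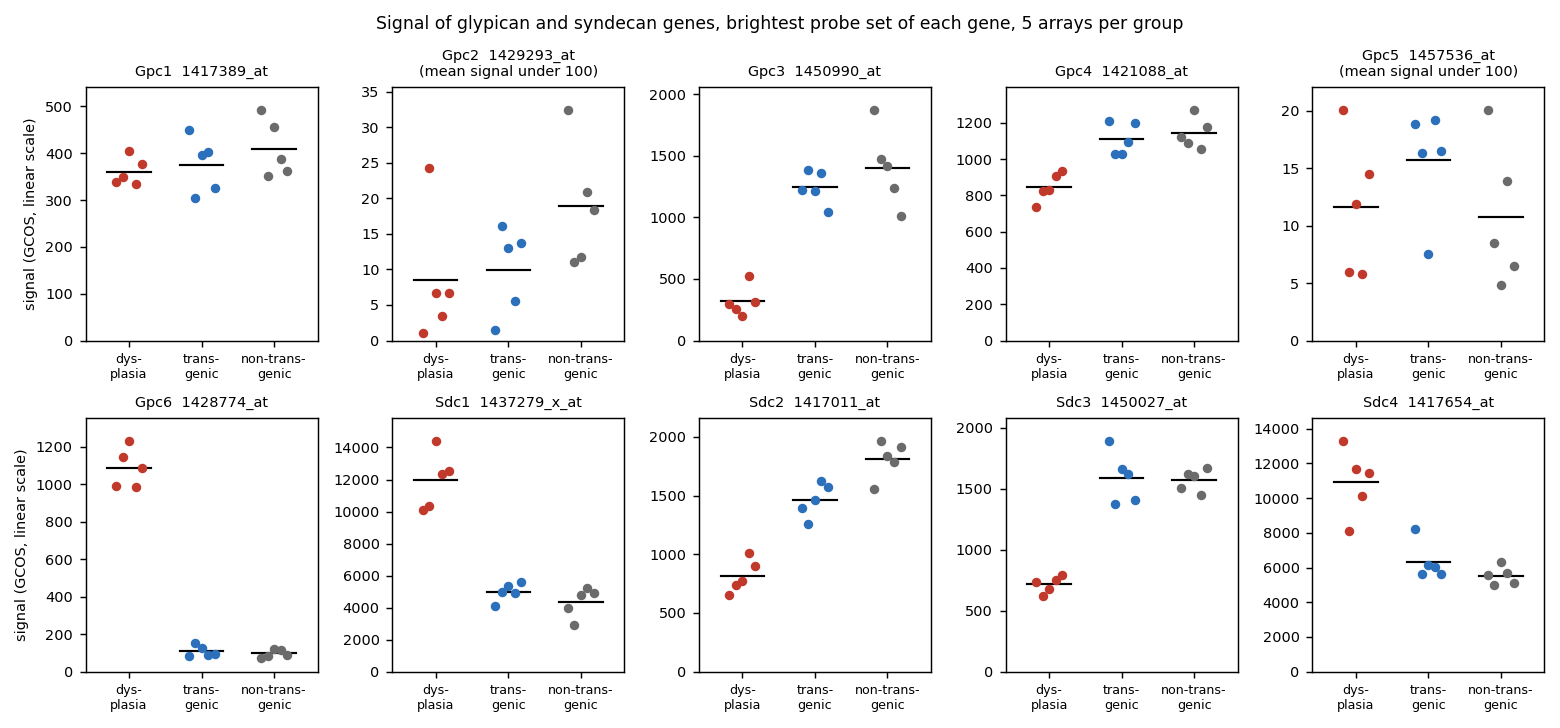
Signal (linear scale, vertical axis) of the brightest probe set of each glypican and syndecan gene in dysplasia, transgenic and non-transgenic tissue. Each point is 1 array, the bar is the mean of 5, and every vertical axis starts at 0 with its own range. Gpc6 and Sdc1 stood higher in dysplasia on every array, Gpc3, Gpc4, Sdc2 and Sdc3 stood lower on every array, and Gpc1 overlapped.

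Gpc6 encodes a glypican that in humans is mutated in a skeletal growth disorder, omodysplasia. Its brightest probe set, 1428774_at, had signals of 993, 1146, 1230.1, 988 and 1088 in dysplasia, 85.1, 151, 127, 90.5 and 95.6 in transgenic tissue and 73.1, 85.8, 120.1, 115 and 91.1 in non-transgenic tissue. Every dysplasia array lay above every other array by a wide margin. Dysplasia averaged 1089 ± 103 against 109.9 ± 28.2 in transgenic tissue (SD, n = 5 each), a 9.91-fold difference and a log2 change of 2.85 (SE 0.13, limma adjusted p = 4.2e-07). Against non-transgenic tissue the difference was 11.2-fold, with a log2 change of 2.96 (SE 0.11, limma adjusted p = 2.55e-08). Between transgenic and non-transgenic tissue the log2 change was 0.11 (95% interval -0.18 to 0.41).

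Gpc6 had 4 further probe sets, and on each of them all 5 dysplasia arrays lay above all 10 others. Probe set 1437417_s_at, whose mean signal of 102 was just over the limit, had signals of 301, 511, 151, 250.2 and 109.7 in dysplasia, 1.86 to 32.6 in transgenic tissue and 2.8 to 52.5 in non-transgenic tissue. It passed the limit only through the dysplasia arrays, so its difference between the groups is a description and no test of it is given. The other 3 fell under the limit and were not tested. Of these, 1419688_at had a mean of 98.6 over the 15 arrays and ran from 154 to 272 in dysplasia, 22 to 69.6 in transgenic and 36.9 to 58.2 in non-transgenic tissue, and 1419689_at ran from 65.4 to 92.6 in dysplasia, 21.1 to 46.6 in transgenic and 4.63 to 55.1 in non-transgenic tissue. Probe set 1441438_at ran from 39.7 to 109 in dysplasia, 15.3 to 30.8 in transgenic and 17.9 to 31.8 in non-transgenic tissue. 

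**Figure D2:**
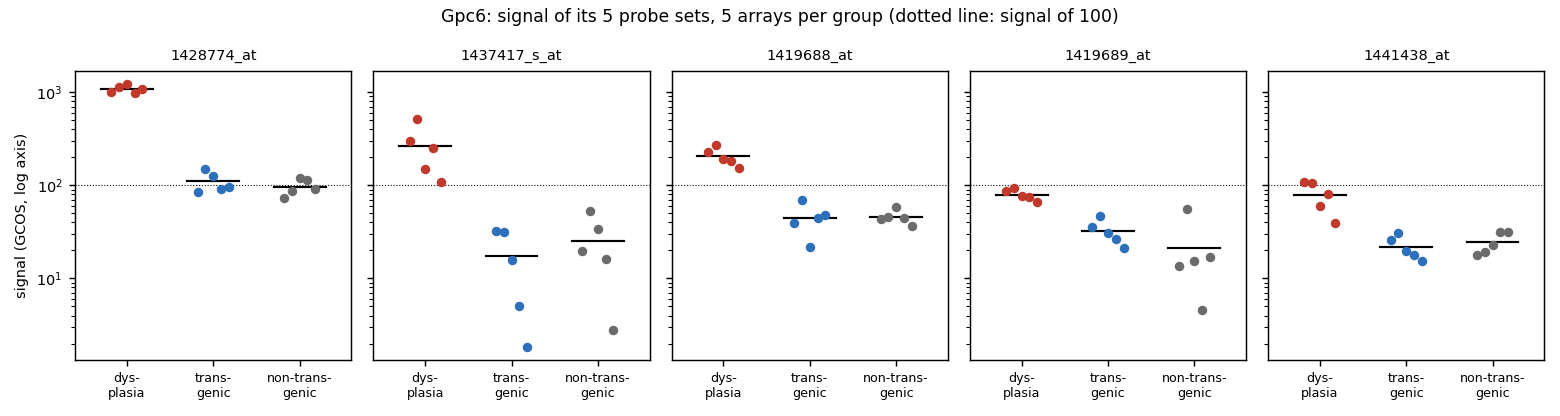
Signal (log axis) of the 5 probe sets of Gpc6 in dysplasia, transgenic and non-transgenic tissue, with 1 point per array, the bar at the mean of 5 arrays and a dotted line at the limit of 100. On all 5 probe sets the dysplasia arrays lay above the other 10, and 1428774_at showed the brightest signal, 988 to 1230.1 in dysplasia.

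Gpc5, the neighbour of Gpc6 on chromosome 14, could not be assessed on its 1 probe set. Probe set 1457536_at had signals of 5.82 to 20 in dysplasia, 7.56 to 19.2 in transgenic and 4.87 to 20.1 in non-transgenic tissue, all far under the limit, so no change could be measured. Gpc2, a glypican known from the developing nervous system, was likewise near background on 1429293_at, with 1.12 to 24.3 in dysplasia, 1.53 to 16.1 in transgenic and 11 to 32.4 in non-transgenic tissue.

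Gpc3 encodes the glypican that binds Hedgehog and restrains growth, and its loss causes an overgrowth syndrome in humans. Probe set 1450990_at, the only one of Gpc3, had signals of 297, 258, 195, 528 and 309.8 in dysplasia, 1223, 1386, 1212, 1361 and 1046 in transgenic and 1873, 1478, 1419, 1238 and 1015 in non-transgenic tissue. All dysplasia arrays lay below all others, with dysplasia array 4 nearest to them. Dysplasia averaged 318 ± 126 against 1246 ± 136 in transgenic tissue (SD, n = 5 each), a log2 change of -1.87 (SE 0.19, limma adjusted p = 3.26e-05), and reached 0.226 of the non-transgenic mean, a log2 change of -2.02 (SE 0.22, limma adjusted p = 2.52e-05). Between transgenic and non-transgenic tissue it was -0.15 (95% interval -0.47 to 0.18). With each array left out in turn, the change against transgenic tissue stayed between -2.05 and -1.74.

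Gpc4, next to Gpc3 on the X chromosome, encodes a glypican that takes part in FGF and Wnt signalling. It was lower too, by less. Probe set 1421088_at gave 738, 827, 828, 907 and 933 in dysplasia, against 1028 to 1209 in transgenic and 1053 to 1271 in non-transgenic tissue. The groups did not overlap, and the log2 change was -0.38 (SE 0.09, limma adjusted p = 0.00927) against transgenic and -0.41 (limma adjusted p = 0.0032) against non-transgenic tissue. Its second probe set, 1436514_at, gave 178 to 255 in dysplasia, 217 to 344 in transgenic and 337 to 439 in non-transgenic tissue. Dysplasia overlapped transgenic tissue here through transgenic array 2, at 217, and the log2 change was -0.49 (limma adjusted p = 0.0122), against -0.81 (limma adjusted p = 9.22e-05) for non-transgenic tissue.

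Both genes are X-linked and the groups differed in their share of female mice. With the Xist signal as a covariate, chosen after seeing the data, the log2 change of Gpc3 was -1.88 against transgenic (limma adjusted p = 0.000104) and -2.08 against non-transgenic tissue (limma adjusted p = 0.000128), and that of Gpc4 on 1421088_at was -0.37 and -0.40 (limma adjusted p = 0.0178 and 0.0132).

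Gpc1, the most widely expressed glypican in adult tissues, had no call. Probe set 1417389_at ran from 335 to 404 in dysplasia, 305 to 449 in transgenic and 352 to 493 in non-transgenic tissue, overlapping throughout. The log2 change was -0.04 against transgenic (95% interval -0.29 to 0.20) and -0.16 against non-transgenic tissue (95% interval -0.39 to 0.07), so that a change as large as that of Gpc3 or Gpc6 lay outside both intervals.

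Sdc1 encodes syndecan-1 (CD138), the syndecan of epithelial cells and of plasma cells, and it was called higher on 4 of 4 probe sets in both comparisons of dysplasia. Probe set 1415943_at had signals of 11272, 8825, 10761, 9060.3 and 9361 in dysplasia, 4519, 4423, 4479, 4224 and 3709 in transgenic and 2999, 2993, 3185, 3409 and 2940.0 in non-transgenic tissue. The 3 groups did not overlap and stood in the order dysplasia, transgenic, non-transgenic. The difference was 2.31-fold against transgenic tissue, with a log2 change of 1.19 (SE 0.10, limma adjusted p = 1.02e-05), and 3.17-fold against non-transgenic tissue, with a log2 change of 1.65 (SE 0.09, limma adjusted p = 3.57e-07).

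Probe set 1415944_at of Sdc1 had the same order, with 4297 to 6609 in dysplasia, 1765 to 2372 in transgenic and 1213 to 1616 in non-transgenic tissue, 2.74-fold and 3.92-fold higher in dysplasia. Probe set 1437279_x_at ran from 10117 to 14398 in dysplasia, 4099 to 5579 in transgenic and 2913 to 5212 in non-transgenic tissue, so that transgenic and non-transgenic tissue overlapped on it. The dimmest, 1448158_at, had 527, 721, 376, 182 and 179 in dysplasia, 62.1 to 239 in transgenic and 56.8 to 146 in non-transgenic tissue. Its log2 change against transgenic tissue was 1.17 (SE 0.37, limma adjusted p = 0.0311). That call was lost without dysplasia array 1, 2 or 3 or transgenic array 1, 4 or 5, with adjusted p between 0.0525 and 0.074, and with no filter on low signals.

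Sdc1 held the only member call between transgenic and non-transgenic tissue. On 1415943_at the transgenic arrays were 1.38-fold higher, a log2 change of 0.45 (SE 0.08, limma adjusted p = 0.0273), beside 1.26% of all tested probe sets called in that comparison, 1.17% higher and 0.0831% lower. No member was called lower, and 4 of 17 had an unadjusted p under 0.05, beside 12.1% of all tested probe sets. On 1415944_at the difference was 1.43-fold, a log2 change of 0.50 (SE 0.11, limma adjusted p = 0.0605, and 0.0393 with the array number as a block, where the numbers join different mice). On these 2 probe sets, and on no other of the 17, the transgenic and non-transgenic arrays did not overlap, beside 4.30% of all tested (3.23% higher and 1.08% lower). The remaining Sdc1 probe sets overlapped, with log2 changes of 0.21 (95% interval -0.13 to 0.56) and 0.13 (-0.44 to 0.70). The call on 1415943_at was lost without transgenic array 1, 2, 3 or 4 or non-transgenic array 1, 2, 3 or 5, with adjusted p between 0.0555 and 0.0926, and with the Xist signal as a covariate (log2 change 0.50, limma adjusted p = 0.104). Age and genotype cannot be told apart in this comparison, and by Xist the 2 groups also differed in their share of female mice.

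Since Sdc1 also marks plasma cells, a list of 6 tested plasma and B cell genes was read beside it. In dysplasia against transgenic tissue 1 was called higher and 4 lower, and the sums were 6427 to 15945 in dysplasia, 6104 to 11044 in transgenic and 8629 to 14161 in non-transgenic tissue. The gene called higher was Jchain, the joining chain of secreted IgA and IgM, at 4407 to 12157 in dysplasia against 2643 to 5973 in transgenic tissue (log2 change 0.89, limma adjusted p = 0.0477). Against non-transgenic tissue its log2 change was 0.40, with no call (limma adjusted p = 0.291). The part of plasma cells in the Sdc1 signal was not tested.

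Sdc4 encodes the syndecan of focal adhesions, which binds protein kinase C alpha, and it was called higher in dysplasia on 1417654_at in both comparisons. Probe set 1417654_at had signals of 13285, 8087, 11691, 10132 and 11473 in dysplasia, 8193, 5634, 6122, 6032 and 5606 in transgenic and 5561, 5011, 6316, 5682 and 5139 in non-transgenic tissue. The groups overlapped only between dysplasia array 2 and transgenic array 1, and not at all between dysplasia and non-transgenic tissue. The difference was 1.73-fold against transgenic tissue, a log2 change of 0.78 (SE 0.15, limma adjusted p = 0.00194), and 1.97-fold against non-transgenic tissue, a log2 change of 0.96 (SE 0.13, limma adjusted p = 0.000133).

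The second Sdc4 probe set, 1448793_a_at, spread widely within each group. Its signals were 8600.1, 8106, 3004, 2734 and 1994 in dysplasia, 4210.5, 3526, 1212, 1606 and 944 in transgenic and 2703, 3359, 1050.2, 1033 and 593 in non-transgenic tissue. In each group the arrays numbered 1 and 2 were the brightest, and the same 2 numbers had the highest actin 5′ to 3′ ratios of their group, 69.9% and 75.2% in dysplasia, 46.3% and 63.4% in transgenic and 54.6% and 72.8% in non-transgenic tissue. The dysplasia array was above the transgenic array of its own number for all 5 numbers, though by Xist number 4 may not join tissue of 1 mouse. In the unpaired fit the log2 change was 1.06 (SE 0.51, limma adjusted p = 0.143), and with the array number as a block the adjusted p was 3.2e-05. Against non-transgenic tissue the log2 change was 1.48 (SE 0.53, limma adjusted p = 0.043). That call was lost without dysplasia array 1, 2 or 3 or non-transgenic array 3, 4 or 5, with adjusted p between 0.0529 and 0.102, and with quantile normalization, no filter on low signals or the Xist covariate, with adjusted p between 0.0522 and 0.152. With the actin ratio as a covariate the log2 change was 0.67 against transgenic (adjusted p = 0.144) and 1.01 against non-transgenic tissue, where the call was kept (adjusted p = 0.00361). With the group means taken out, r with the actin ratio was 0.87 for this probe set, and it was not alone. It was 0.79 for Gpc6 1437417_s_at, 0.75 for Sdc2 1448545_at and 1417012_at, 0.65 for Sdc1 1448158_at and -0.74 for Sdc1 1437279_x_at. The remaining tested probe sets lay between -0.48 and 0.55.

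**Figure D3:**
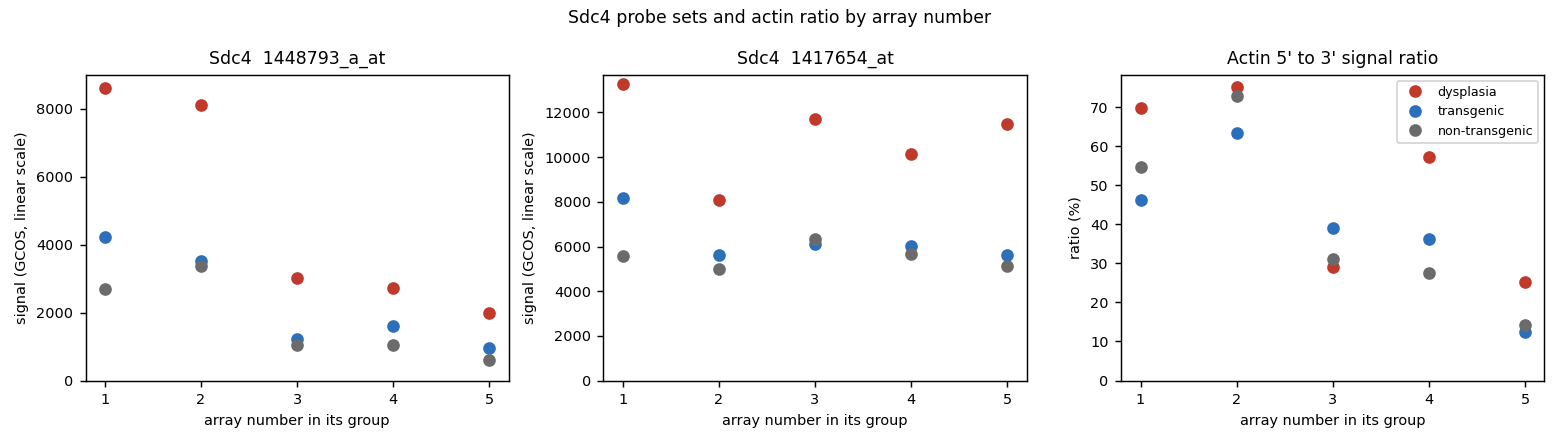
Signal (linear scale) of the 2 Sdc4 probe sets and the actin 5′ to 3′ signal ratio (%) by array number, with 1 point per array for dysplasia, transgenic and non-transgenic tissue. On 1448793_a_at the arrays numbered 1 and 2 stood out in every group, while 1417654_at showed no such split. The same numbers had the highest actin ratios of each group but did not stand apart in every group. Dysplasia array 4 was at 57.1% against 69.9% on array 1, and transgenic array 3 at 38.9% against 46.3% on array 1.

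Sdc2, the syndecan of mesenchymal and endothelial cells, was lower in dysplasia on 3 of 3 tested probe sets. Probe set 1417011_at had signals of 651, 741, 773, 1013 and 902 in dysplasia, 1392, 1259, 1459, 1621 and 1572 in transgenic and 1554, 1964, 1838, 1787 and 1916 in non-transgenic tissue. Dysplasia lay below all other arrays, while transgenic and non-transgenic arrays overlapped. The dysplasia mean was 0.559 of the transgenic mean, a log2 change of -0.81 (SE 0.12, limma adjusted p = 0.00044), and 0.450 of the non-transgenic mean, a log2 change of -1.12 (SE 0.12, limma adjusted p = 2.42e-05). Transgenic against non-transgenic tissue gave -0.30 (95% interval -0.52 to -0.09), which did not pass the adjusted threshold (limma adjusted p = 0.201).

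Probe set 1448545_at of Sdc2 also separated dysplasia, at 524 to 1030.3, from transgenic tissue, at 1112 to 1722, and non-transgenic tissue, at 1294 to 2446. On 1417012_at the groups overlapped, with 113 to 221 in dysplasia, 154 to 276 in transgenic and 199.9 to 438 in non-transgenic tissue. Its log2 change of -0.49 against transgenic tissue (SE 0.17, limma adjusted p = 0.0397) was no call without dysplasia array 1, 3, 4 or 5 or transgenic array 1, 2, 3 or 4, with adjusted p between 0.0655 and 0.0907, nor with no filter on low signals, all 15 arrays in 1 fit or the Xist covariate, with adjusted p between 0.054 and 0.0675. Probe set 1431474_at, with 0.432 to 11.6 in dysplasia, 1.48 to 32.9 in transgenic and 10.9 to 30.0 in non-transgenic tissue, was too dim to test.

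Sdc3, best known from the nervous system, was lower in dysplasia on the brighter of its 2 tested probe sets and had no call on the other. Probe set 1450027_at had signals of 737, 623, 680.1, 753 and 791 in dysplasia, 1889.8, 1378, 1659, 1622 and 1405 in transgenic and 1507, 1618, 1601, 1446 and 1667 in non-transgenic tissue. Dysplasia stood apart on every array, at 0.451 of the transgenic mean with a log2 change of -1.09 (SE 0.11, limma adjusted p = 2.65e-05) and 0.457 of the non-transgenic mean with -1.08 (SE 0.09, limma adjusted p = 2.94e-06). Transgenic and non-transgenic tissue differed by 0.01 (95% interval -0.21 to 0.23).

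The 2 tested probe sets of Sdc3 disagreed. Probe set 1420853_at ran from 102 to 140.1 in dysplasia, 109 to 164 in transgenic and 101 to 170.0 in non-transgenic tissue, with a log2 change of -0.10 against transgenic tissue (95% interval -0.34 to 0.13). That interval does not hold the change seen on 1450027_at. Its mean signal of 131 over the 15 arrays was close to the limit. Probe set 1436482_a_at, below the limit at a mean of 96.5, ran from 64.3 to 79.3 in dysplasia, 77.2 to 144 in transgenic and 86.3 to 137 in non-transgenic tissue. Dysplasia overlapped transgenic but not non-transgenic tissue on it. With no filter on low signals its log2 change was -0.32 against transgenic (limma adjusted p = 0.0738) and -0.43 against non-transgenic tissue (limma adjusted p = 0.00554).

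**Figure D4:**
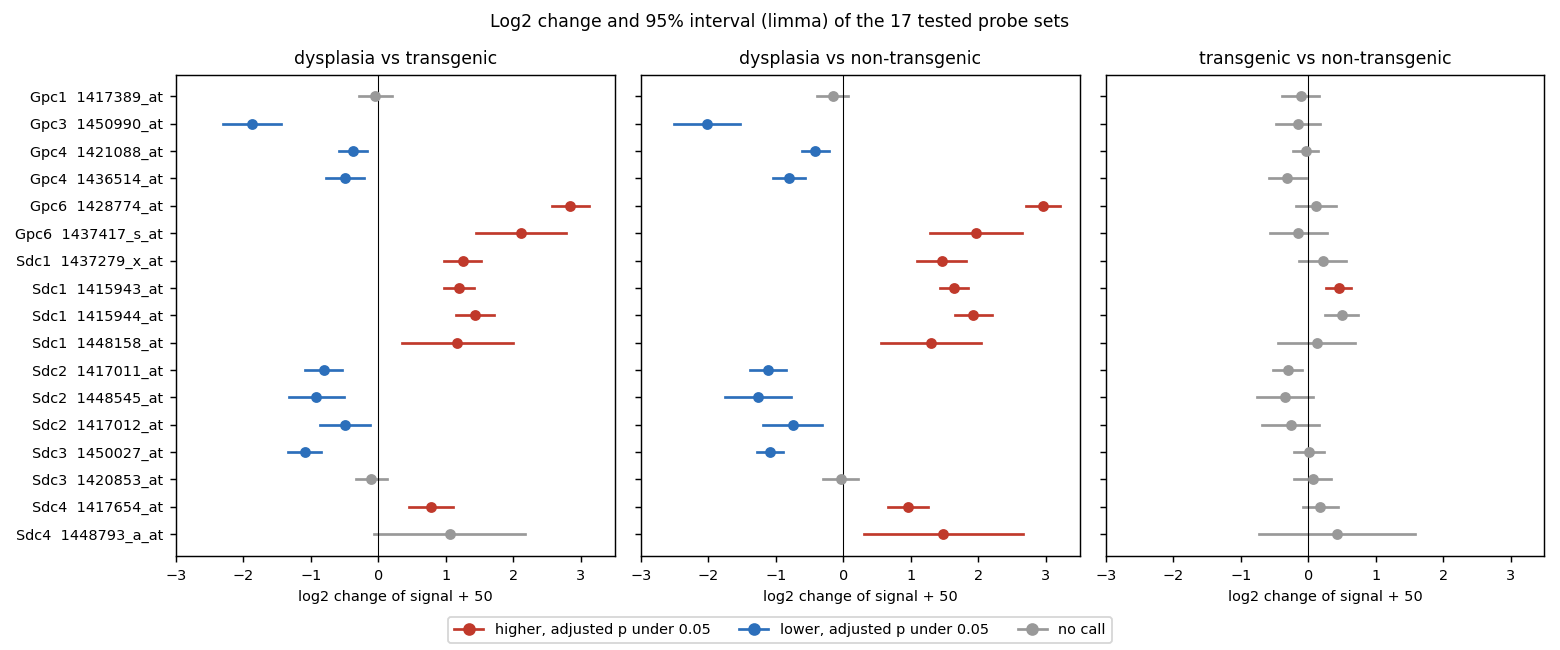
Log2 change of signal + 50 (horizontal axis) with its 95% interval for the 17 tested probe sets, in dysplasia against transgenic, dysplasia against non-transgenic and transgenic against non-transgenic tissue. Red marks a call higher, blue a call lower and grey no call. The changes in dysplasia ran from -1.87 for Gpc3 to 2.85 for Gpc6 against transgenic tissue, and between transgenic and non-transgenic tissue only Sdc1 1415943_at was called. Gpc6 1437417_s_at is drawn although it passed the signal limit through the dysplasia arrays alone.

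Markers of other cell types were read beside the members that were lower in dysplasia. Of all tested probe sets, 17.9% were called lower against transgenic and 23.3% against non-transgenic tissue. The 14 endothelial genes had a median log2 change of -1.61 against transgenic and -1.84 against non-transgenic tissue, and Cdh5, the endothelial cadherin, averaged 2083 ± 411 in dysplasia against 7431 ± 902 in transgenic tissue (SD, n = 5 each). Mesothelial markers were lower for 4 of 4 tested genes, with summed signals of 245 to 626 in dysplasia, 1875 to 2549 in transgenic and 2019 to 2694 in non-transgenic tissue. Fibroblast markers were lower for 5 of 10 and higher for 0, with sums of 29318 to 39076 in dysplasia, 49668 to 60087 in transgenic and 54947 to 60847 in non-transgenic tissue. With the array number as a block, 6 fibroblast genes were lower and 2 higher against transgenic tissue. None of the endothelial or mesothelial markers was at 0 in dysplasia. Smooth muscle and pericyte markers were lower for 4 of 6 genes against transgenic and 6 of 6 against non-transgenic tissue, with sums of 7379 to 10720 in dysplasia, 11968 to 15991 in transgenic and 15862 to 18003 in non-transgenic tissue. Alveolar type 1 markers were lower for 5 of 8 and higher for 1 in both comparisons, with overlapping sums of 54533 to 84009 in dysplasia, 64057 to 101169 in transgenic and 66825 to 86583 in non-transgenic tissue. Macrophage markers were lower for 7 of 8 against transgenic tissue, and lower for 2 and higher for 1 against non-transgenic tissue, with sums of 25407 to 30590 in dysplasia, 37473 to 43462 in transgenic and 25978 to 38548 in non-transgenic tissue. The part of these cell types in the lower signals of Gpc3, Gpc4, Sdc2 and Sdc3 was not tested.

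Airway markers were read beside the members that were higher. Of all tested probe sets, 15.3% were called higher against transgenic and 20.7% against non-transgenic tissue. Of 6 ciliated cell genes on the list, only Pifo and Rsph1 passed the signal limit, and their signals summed to 1168 to 1358 in dysplasia. Their sums were 115 to 265 in transgenic and 126 to 343 in non-transgenic tissue, so the limit may have been passed through the dysplasia arrays alone. Both were called higher in both comparisons of dysplasia, which is given as a description only. Club cell markers were higher for 2 of 5 genes (Scgb3a2 and Cyp2f2) and lower for 1 (Aldh1a1) against transgenic tissue, and higher for 0 and lower for 1 against non-transgenic tissue. Their sums were 41176 to 76442 in dysplasia, 39120 to 45922 in transgenic and 39531 to 63371 in non-transgenic tissue, and overlapped. The part of airway cells in the higher signals of Gpc6, Sdc1 and Sdc4 was not tested.

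For the brightest probe set of each called member, the 3 genes with the most similar pattern over the 15 arrays were listed by Pearson's r of log2(signal + 50), as a description in which the group differences and shared arrays weigh heavily. The pattern of Gpc3 was closest to Lysmd2 (r = 0.985), Sox7 (0.983), an endothelial transcription factor, and Angpt1 (0.981), the ligand of the Tek receptor. That of Sdc2 was closest to Mmrn2 (0.989), an endothelial matrix protein, Peg3 (0.988) and Fmo5 (0.983), and that of Sdc3 to Sod3 (0.988), the extracellular superoxide dismutase, Pnkd (0.988) and Gjc1 (0.985). Gpc4 was closest to Tmem132d (0.966), Dennd3 (0.961) and Itga5 (0.956).

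Among the members higher in dysplasia, Gpc6 was closest to Fam167a (r = 0.993), Kctd1 (0.993) and Fam107b (0.991) over the 15 arrays. Sdc1 was closest to Wdr6 (0.988), Kctd14 (0.984) and Rgs10 (0.984), and Sdc4 to Grcc10 (0.988), Ndufa4 (0.983) and Spcs1 (0.982). With the group means taken out, the closest genes were Fam83h for Gpc6 (0.936), Adam15 for Sdc1 (0.959) and Aldoa for Sdc4 (0.946), and for the members that were lower, Lysmd2 for Gpc3 (0.914), Chml for Gpc4 (0.882), Antxr2 for Sdc2 (0.922) and Map3k11 for Sdc3 (0.930). Of the 7 members, Gpc3 alone had the same gene at the top of both orders. The Sdc1 pattern is that of 1437279_x_at alone. With the group means taken out, its r was 0.06 with Sdc1 1415943_at, -0.36 with 1415944_at and -0.32 with 1448158_at. Its r with the actin ratio was -0.74, so the closest gene given for Sdc1 does not hold for its other probe sets.

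Heparan sulphate chains are begun on a linker of 4 sugars, lengthened by exostosins and then sulphated at set positions. The counts in this and the next 4 lists stand beside 33.2% of all tested probe sets called against transgenic and 44.0% against non-transgenic tissue. With the array number as a block these shares were 49.2% and 49.6%. Of the 44 tested genes of the 5 lists, 21 and 25 were called without the block. Of 8 tested linker and polymerisation genes, 1 was called higher and 0 lower in dysplasia against transgenic tissue (median log2 change 0.04), and 2 were higher and 1 lower against non-transgenic tissue. With the array number as a block, 2 were higher (B3galt6 and Fam20b) and 3 lower (B4galt7, Ext2 and Extl3) against transgenic tissue. B3galt6, a linker galactosyltransferase, was at 262 ± 37.7 in dysplasia against 198 ± 19.8 in transgenic tissue (SD, n = 5 each), a log2 change of 0.33 (limma adjusted p = 0.0322). Extl3, which starts the chain, had a log2 change of -0.39 against transgenic (limma adjusted p = 0.0584, and 0.0133 with the block) and was lower against non-transgenic tissue, with a log2 change of -0.47 (limma adjusted p = 0.0172).

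Of 10 tested chain modifying enzymes, 2 were higher and 2 lower against transgenic tissue (median -0.01), and 2 were higher and 1 lower against non-transgenic tissue. Hs3st3b1, a 3-O-sulphotransferase, had the largest change of this list, with 573 ± 171 in dysplasia against 173 ± 50.5 in transgenic and 102 ± 28.1 in non-transgenic tissue (SD, n = 5 each). This was 3.31-fold against transgenic tissue (log2 change 1.47, limma adjusted p = 0.000173) and 5.62-fold against non-transgenic tissue (log2 change 2.02). Hs6st1, a 6-O-sulphotransferase, was higher with 0.62 (limma adjusted p = 0.00393), Hs2st1, a 2-O-sulphotransferase, was lower with -0.42 (limma adjusted p = 0.00761) and Sulf2, an extracellular 6-O-endosulphatase, with -0.29 (limma adjusted p = 0.0286), all log2 changes against transgenic tissue.

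Core proteins are released by proteases and, for glypicans, by lipases that cut the anchor. Of 9 tested genes of this kind, inhibitors included, 0 were higher and 3 lower against transgenic tissue, and 1 was higher and 4 lower against non-transgenic tissue. With the block, 1 was higher (Mmp14) and 4 lower against transgenic tissue, Timp3, an inhibitor of shedding proteases, being the added one. Pcsk5, a proprotein convertase, averaged 389 ± 121 in dysplasia against 1360.2 ± 163 in transgenic tissue (SD, n = 5 each), a log2 change of -1.73 (limma adjusted p = 6.23e-05). Mmp9, a gelatinase that can shed Sdc1, was lower with a log2 change of -0.64 (limma adjusted p = 0.00218), and Notum, which acts as a Wnt deacylase and was first described as a glypican-releasing enzyme, with -0.63 (limma adjusted p = 0.0055). Mmp14 had a log2 change of 0.61 against transgenic tissue (limma adjusted p = 0.0623, and 0.00102 with the block) and was higher against non-transgenic tissue with 0.67 (limma adjusted p = 0.0448).

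Among 9 proteins that bind syndecan tails or act with them, 4 were higher and 2 lower against transgenic tissue (median log2 change 0.42), and 5 were higher and 2 lower against non-transgenic tissue. Sdcbp2 (syntenin-2), a PDZ protein, averaged 898 ± 140 in dysplasia, against 140 ± 34.9 in transgenic tissue and 105 ± 30.5 in non-transgenic lung (SD, n = 5 each), 6.40-fold and 8.53-fold higher in dysplasia (log2 changes 2.32 and 2.62, limma adjusted p = 1.28e-06 and 4.52e-07). Its better known relative Sdcbp (syntenin-1) had a log2 change of 0.13 against transgenic tissue (limma adjusted p = 0.482). Pdcd6ip (Alix), which works with syntenin in exosome formation, was higher with a log2 change of 0.43 (limma adjusted p = 0.00374). Prkca, the kinase that Sdc4 binds, was lower with a log2 change of -0.38 (limma adjusted p = 0.0119) and Synpo2, an actin-binding protein of muscle, with -1.08 (limma adjusted p = 8.14e-05).

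The other proteoglycans that can carry heparan sulphate or related chains were mostly lower, with 5 of 8 called lower and 2 higher in dysplasia against transgenic tissue (median -0.57), and the same counts against non-transgenic tissue (median -0.66). Spock2, a testican of the matrix, averaged 674 ± 206 in dysplasia against 2889 ± 557 in transgenic tissue (SD, n = 5 each), a log2 change of -2.04 (limma adjusted p = 2.54e-05). Tgfbr3 (betaglycan) was lower with a log2 change of -0.95 (limma adjusted p = 0.000238) and Srgn (serglycin), the granule proteoglycan of blood cells, with -0.87 (limma adjusted p = 0.000422). Col18a1, whose product is a basement membrane collagen, was higher at 1917 ± 325 in dysplasia against 907 ± 77.0 in transgenic tissue (SD, n = 5 each), 2.11-fold with a log2 change of 1.03 (limma adjusted p = 8.09e-05). Between transgenic and non-transgenic tissue none of the 44 tested genes of these 5 lists was called by limma, and 4 of them (Hs3st3b1, Sulf2, Synpo2 and Cd44) had an unadjusted p under 0.05, where 12.1% of all tested probe sets did. With the array number as a block, Hs3st3b1 alone of the 44 was called (log2 change 0.54, limma adjusted p = 0.035, and 0.19 without the block), beside 1.52% of all probe sets in that fit.

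**Figure D5:**
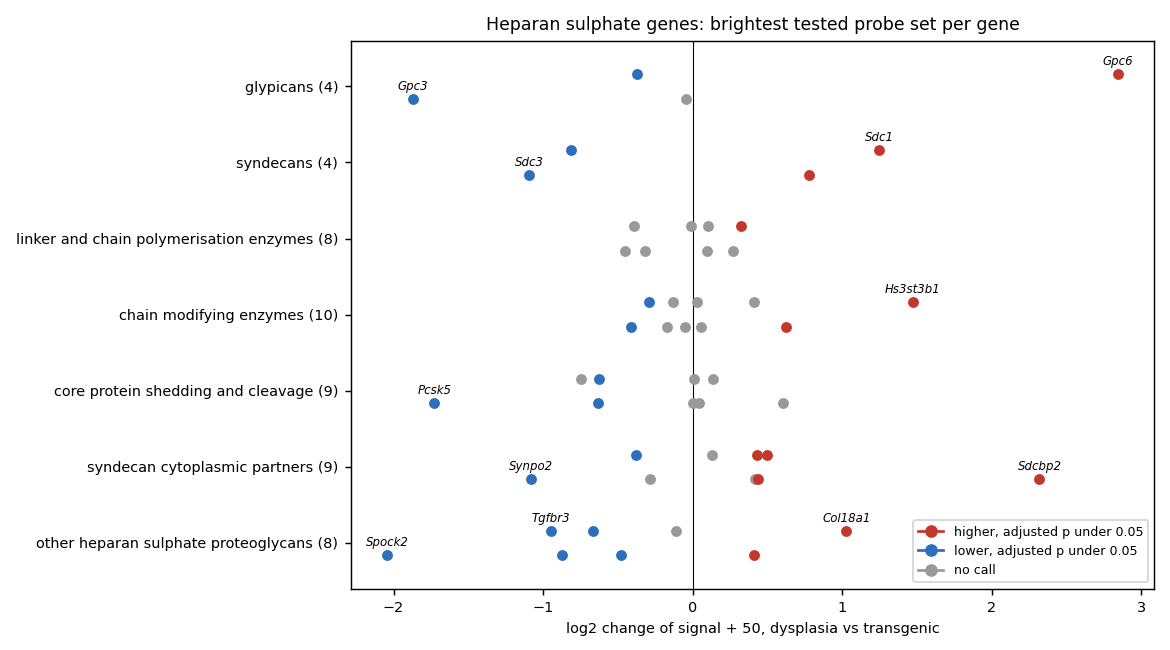
Log2 change of signal + 50 (horizontal axis) in dysplasia against transgenic tissue for the brightest tested probe set of each gene, by list, with the number of tested genes in parentheses. Red marks a call higher, blue a call lower and grey no call, and genes beyond 0.9 in either direction are named. Gpc6 and Sdcbp2 had the highest values, 2.85 and 2.32, and Spock2 and Gpc3 the lowest, -2.04 and -1.87.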

How the data were processed

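RNA of laser-microdissected mouse lung was hybridised to Affymetrix GeneChip mouse genome arrays. The deposited values are linear signal intensities that the authors made with GCOS (version not stated in the sources used here), scaled to a target of 500; the trimmed mean, without the outer 2% at each end, was 500.0 on every array. The study's own statistics came from further software and SAM, which were not used here. Probe sets were named from the platform annotation, which gave 34945 probe sets 1 gene symbol, 932 several and 9160 none, and all 10 member gene IDs matched the current table. A further probe set shared by Gpc2 and Gal3st4 was left out. 1 item is not reported here.

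Control probe sets (64) were removed, and 21658 probe sets whose signal averaged more than 100 across all 15 arrays were tested. Log2(signal + 50) was tested with limma 3.58.1 (lmFit, eBayes) in R 4.3.3, two-sided and unpaired as in the study's methods, on the 10 arrays of each comparison, with Benjamini-Hochberg adjustment and a threshold of 0.05. The number of arrays limits the precision. The fit was tested on simulated data with 200 changed probe sets. Genes of a list were read through their brightest tested probe set, and up to 4 per list and comparison with the smallest p were named; Jchain, Cdh5, Sdcbp and Mmp14 are named as well where the text turns on them. Members and lists were chosen with earlier results of these data known.

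Arrays carry numbers 1 to 5 in each group, and by the study's methods dysplasia and unaltered tissue came from the same mice. Xist was at 9674 on dysplasia array 4 and 85 on transgenic array 4, so number 4 may not join tissue of 1 mouse. Deviations from group means of same-numbered arrays correlated at 0.612 on average between dysplasia and transgenic (lowest 0.219, 10 of 10 arrays closest to their own number) and 0.452 between transgenic and non-transgenic arrays (lowest 0.135, 4 of 10 arrays closest to their own number, from different mice), which were taken as paired in a further fit with the number as a block. Between dysplasia and non-transgenic arrays the lowest was -0.00366. Alternatives were the offset, the filter, the scaling, 1 fit of all 15 arrays, limma-trend, an actin ratio covariate, each array left out in turn and, chosen after seeing the data, an Xist covariate.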

Additional observations from a re-analysis of the deposited data

Results flagged for a closer look

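Of 72 groups of 5 arrays examined, 4 held 1 array that stood far from the other 4 relative to the group's range; chance gives about 1 in 20 groups. On Sdc4 1417654_at, transgenic array 1 had a signal of 8193, against 5606 to 6122 on the other transgenic arrays. It lay above dysplasia array 2, at 8087, which was the only overlap of dysplasia and transgenic tissue on that probe set. On Gpc2 1429293_at, dysplasia array 2 had 24.3, against 1.12 to 6.74 on the other dysplasia arrays. On Gpc5 1457536_at, transgenic array 3 had 7.56, against 16.3 to 19.2 on the other transgenic arrays. On Sdc2 1431474_at, non-transgenic array 3 had 30.0, against 10.9 to 15.3 on the other non-transgenic arrays. The last 3 probe sets lay under the signal limit.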

How the results depend on the processing

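The counts of member probe sets called in dysplasia stayed within 1.5 times under every alternative run, with 6 to 7 higher and 6 to 7 lower against transgenic tissue, and 7 to 8 higher and 7 lower against non-transgenic tissue, when each array was left out. Between transgenic and non-transgenic tissue the 1 call higher became 2 with a mean signal above 200, with all 15 arrays in 1 fit, with the replicate block, with limma-trend and with the actin ratio as a covariate, and 0 with the Xist covariate; leaving out each array gave 0 to 1. The replicate block also added Sdc4 1448793_a_at against transgenic tissue (log2 change 1.06, limma adjusted p = 3.2e-05), with 15 of 17 called, and beside these changed no member's call. Of the other genes on the 5 lists it added Cask against transgenic tissue and Tiam1 against non-transgenic tissue to those given above. In dysplasia against non-transgenic tissue, where the numbers join different mice, the block left 15 of 17 called. Both counts of 15 include Gpc6 1437417_s_at, which passed the signal limit only through the dysplasia arrays.

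Changes that turned direction were all without a call. Gpc1 1417389_at against transgenic tissue was 0.0032 after quantile normalization and -0.11 to 0.017 with an array left out. Sdc3 1420853_at against non-transgenic tissue was 0.080 after quantile normalization and -0.10 to 0.035 with an array left out, and -0.14 between transgenic and non-transgenic tissue with the Xist covariate, where Sdc4 1448793_a_at was -0.20. With an array left out, transgenic against non-transgenic changes ran from -0.049 to 0.29 for Sdc1 1448158_at and from -0.050 to 0.061 for Sdc3 1450027_at. The causes were not tested. Calls that some settings lost were not confined to dim probe sets. They lay on Sdc1 1448158_at and Sdc2 1417012_at, with mean signals of 217 and 218 over the 15 arrays. They also lay on Sdc4 1448793_a_at and Sdc1 1415943_at, with means of 2978 and 5744. Gpc2 and Gpc5 could not be assessed.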
